A study of Mus musculus with 10 samples.

Results

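The genes described here make up the contractile machinery of smooth muscle, 29 genes in all, and they were followed in 10 mouse ileum samples on a bead array. Every probe whose gene symbol on the platform is one of the 29 was taken. Of the 29 genes, 24 had a probe (40 probes), and 22 of these were measured (32 probes), which means a detection p-value under 0.05 on at least 5 of the 10 arrays. The whole table held 25697 probes, of which 12039 were measured, for 8686 named genes. Myl9, Flna, Ppp1r12b, Tgfb1i1 and Itga8 were not analysed here because no probe in the table carried their names. Synpo2 was detected on 0 arrays and Kcnmb1 on 2, both from knockout samples, so neither was measured. Kcnma1, on 6 arrays, was the measured member closest to the limit.

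The study set 5 samples of ileum, where the small intestine ends before the colon, from interferon-gamma knockout mice (IFNgKO_645 to IFNgKO_649) against 5 wild-type samples (WT_640 to WT_644). The labels do not say how the gene for IFNg, a cytokine of T and natural killer cells, was deleted. All mice were C57Bl/6 males at 8 weeks of age, fed standard chow, held free of specific pathogens and left untreated, and each sample had an array of its own. The labels place the arrays in 2 array sets, and both sets hold both genotypes. Array set 1 holds IFNgKO_645 and IFNgKO_646 with WT_640 and WT_641, and array set 2 holds IFNgKO_647, IFNgKO_648 and IFNgKO_649 with WT_642, WT_643 and WT_644. What distinguishes the sets, and which layers of the wall were taken, is not in the labels. Nor do they say whether 1 animal gave 1 sample, and the p-values cover the scatter among the 10 samples, which may be technical in part.

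Smooth muscle of the intestinal wall lies in an inner circular and an outer longitudinal layer, with a thin muscle layer under the mucosa and muscle cells in vessel walls. Actin filaments slide along smooth muscle myosin when calcium and calmodulin switch on myosin light chain kinase, and a phosphatase reverses the step. The filaments are anchored in dense bodies and held by a desmin network. The genes are switched on together by serum response factor (SRF), which binds a DNA element called the CArG box, with its partner myocardin. In pieces of intact ileum, the RNA of these genes reports how much muscle a piece holds as well as how strongly the muscle cells express them. In bulk samples like these, fewer muscle cells and less RNA per cell cannot be told apart.

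The members share a regulator, so their promoters were searched for the CArG box, and the 4 measured members with a match are printed to show where it lies. Promoters of 24 of the 29 members, 27 promoters in all, were found in a RefSeq table of mouse assembly GRCm38.p6, with 250 bases before and 50 after the start of transcription. The CArG box on either strand was found in 2 of the 27 (7.41%), in Vcl and Myl9, and in 1.63% of all 32851 promoters of the table. A form with 1 inner base other than A or T was found in 4 of the 27 (14.8%), in Acta2, Synm, Pdlim3 and Myl9, and in 8.50% of all. The windows below run 5′ to 3′ on the gene's own strand, and capitals mark the matches. They start at -84 and -34 from the start of transcription in Acta2 (chr19:34255324-34255623, minus strand), at -227 in Vcl (chr14:20929148-20929447, plus strand), at -239 in Synm (chr7:67759693-67759992, minus strand) and at -100 in Pdlim3 (chr8:45885237-45885536, plus strand). A match is a string of letters and no measured binding.
Acta2: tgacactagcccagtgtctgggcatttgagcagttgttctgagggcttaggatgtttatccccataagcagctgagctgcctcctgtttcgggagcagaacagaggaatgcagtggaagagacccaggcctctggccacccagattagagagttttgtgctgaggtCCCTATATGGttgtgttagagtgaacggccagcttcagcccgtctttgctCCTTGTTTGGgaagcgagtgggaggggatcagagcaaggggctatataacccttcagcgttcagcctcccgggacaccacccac
Vcl: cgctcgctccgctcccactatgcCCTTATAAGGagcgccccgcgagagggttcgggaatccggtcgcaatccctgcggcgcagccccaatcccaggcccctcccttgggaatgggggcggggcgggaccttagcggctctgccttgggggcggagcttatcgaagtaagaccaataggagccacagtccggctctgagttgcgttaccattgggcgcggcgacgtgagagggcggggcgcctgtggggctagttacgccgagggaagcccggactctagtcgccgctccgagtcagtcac
Synm: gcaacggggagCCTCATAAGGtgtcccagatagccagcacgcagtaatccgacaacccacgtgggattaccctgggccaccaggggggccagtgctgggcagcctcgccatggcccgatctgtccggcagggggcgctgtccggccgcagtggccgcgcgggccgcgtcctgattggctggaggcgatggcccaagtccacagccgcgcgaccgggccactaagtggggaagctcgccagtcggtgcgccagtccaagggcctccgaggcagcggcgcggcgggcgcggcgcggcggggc
Pdlim3: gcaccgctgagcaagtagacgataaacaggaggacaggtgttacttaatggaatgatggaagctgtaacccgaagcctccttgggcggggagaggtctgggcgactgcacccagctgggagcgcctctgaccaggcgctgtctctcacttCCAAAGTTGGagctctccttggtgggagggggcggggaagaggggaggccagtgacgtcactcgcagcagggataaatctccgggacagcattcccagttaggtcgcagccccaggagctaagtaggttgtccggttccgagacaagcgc

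Between 10618 and 12975 probes were detected per array, fewest on WT_641, next fewest on WT_644 (10818) and most on IFNgKO_649. Mean raw intensity was lowest on the same WT arrays, at 500.2 on WT_644 and 522.9 on WT_641, against 607.8 to 804.1 on the others. WT_641 also had the lowest mean correlation with the other arrays (0.949, against 0.965 to 0.975), and WT_644 had the lowest median raw intensity (93, against 100.4 to 111.8). The ileal genes Fabp6 and Fgf15, the epithelial genes Vil1 and Lgals4, and Myh11 and Acta2 were detected on all 10 arrays. The ileal bile acid transporter gene Slc10a2 was detected on 0. Both probes of Ifng, the deleted gene, were detected on 0 arrays of either genotype, so they do not check the labels.

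Muscle content, taken here as the mean over the 22 measured members of the log2 level minus the gene's mean over the 10 samples, differed between samples of 1 genotype more than between genotypes. It was -0.10, -0.02, 0.22, 0.03 and 0.18 in IFNgKO_645 to IFNgKO_649, and -0.16, 0.33, 0.08, -0.08 and -0.47 in WT_640 to WT_644. The IFNgKO samples lay within the range of the WT samples, since WT_641 was above all of them and WT_640 and WT_644 below all of them. The mean was 0.06 ± 0.14 in IFNgKO and -0.06 ± 0.30 in WT (SD, n = 5 each). The highest sample stood 1.25-fold above the lowest in IFNgKO and 1.74-fold in WT.

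Within their array sets, the 2 WT samples at the ends of that range were the lowest or the highest in most members. Over all 10 samples, WT_641 was above the gene's mean in 21 of the 22 members and WT_644 in 1. WT_644 had the lowest level of the 6 samples of array set 2 in 18 of the 22 members, and did so in 22.1% of all measured genes. WT_641 had the highest level of the 4 samples of array set 1 in 20 of the 22 members, and in 40.7% of all measured genes. It had the lowest level there in 31.3% of all measured genes, so it often stood at an end of its set outside the members too. The weight limma gave its array, lower for arrays further from the fit, was 0.28, against 0.786 to 1.69 for the others. WT_640 was the lowest of array set 1 in 14 of the 22 members, and in 25.3% of all measured genes. When arrays were scaled to a common median and not quantile normalised, the content of WT_641 was 0.06 and IFNgKO_647 was highest, and the mean of all measured probes in WT_641 then stood at -0.33. Relative to that mean, WT_641 was at 0.39 and WT_644 at -0.49. The within-genotype SD of a member was larger in WT than in IFNgKO in 17 of 22 (77.3%), against 66.6% of all measured genes. The median SD was 0.20 in IFNgKO and 0.42 in WT, against 0.24 and 0.32 over all genes.

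**Figure D1:**
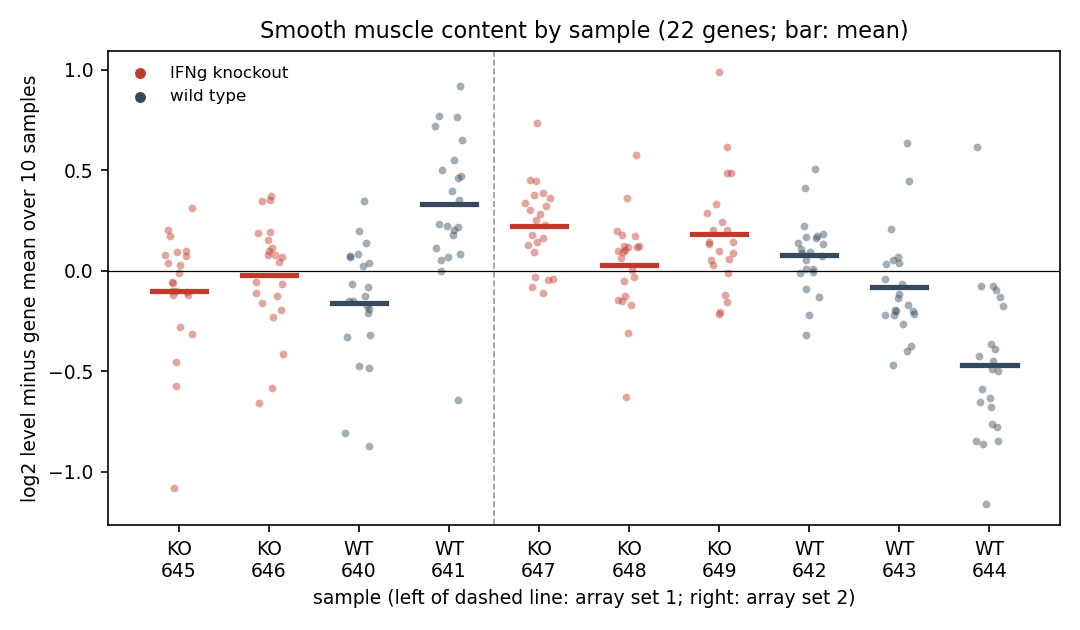
Log2 level minus the gene's mean over the 10 samples (vertical axis) for each of the 22 measured members (points) in each sample (horizontal axis), with the mean as a bar, IFNgKO samples left of WT samples within each array set. The bars run between -0.10 and 0.22 in IFNgKO samples and between -0.47 (WT_644) and 0.33 (WT_641) in WT samples.

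The members varied together. After the means of the 4 genotype and array set groups were subtracted, the median Pearson correlation over the 231 pairs of members was 0.63 (Spearman 0.61, n = 10 samples with 6 degrees of freedom left), and the median over all pairs of measured genes was 0.00. Of the 231 pairs, 68.4% had a correlation above 0.5, against 16.3% of all pairs. All values come from the same 10 arrays and the same normalisation, and in array set 1 the 2 samples of a genotype mirror each other by construction. Within array set 2 alone the median pair correlation was 0.67 (n = 6). Without WT_641 and WT_644 it was 0.25 (n = 7, since WT_640 is then alone in its group and drops out), with 35.5% of pairs above 0.5 against 20.8% of all pairs, so much of the common variation rests on those 2 samples.

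Lmod1, the leiomodin that nucleates actin filaments in smooth muscle, had the highest median correlation with the other members (0.80) and was paired most closely with Csrp1 (0.98). Des, the intermediate filament desmin, and Csrp1, a LIM protein of smooth muscle, both had 0.79. Des and Pdlim3, a PDZ and LIM protein of the actin anchoring sites, were correlated at 0.99. Cnn1, calponin, followed the others weakly at 0.24. Vcl, vinculin, which links actin to cell adhesions, did not follow them, with a median of -0.20, and it also differed by array set as described further on.

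**Figure D2:**
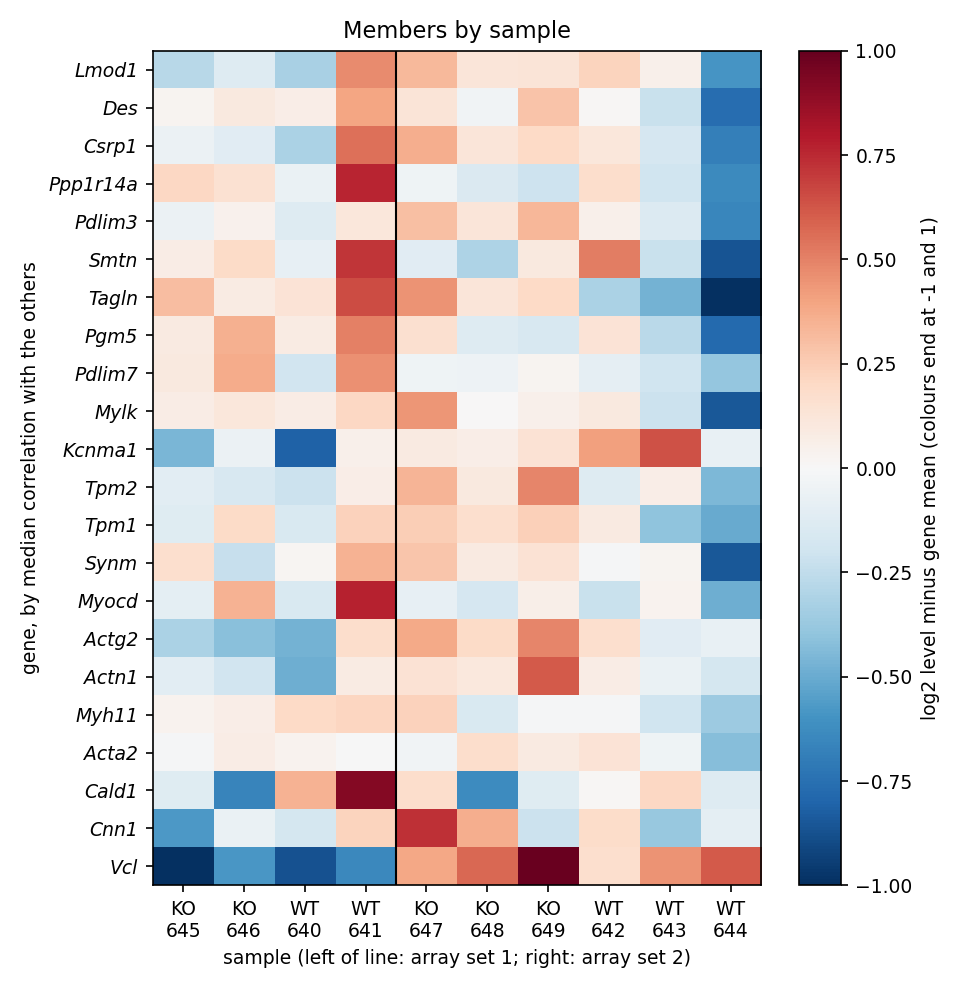
Log2 level minus the gene's mean for each measured member (rows, ordered by median correlation with the other members) in each sample (columns), with colours that end at -1 and 1. The WT_641 column is red and the WT_644 column is blue in nearly all rows, while Vcl, at the bottom, changes colour between array set 1 and array set 2.

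IFNgKO was compared with WT with array set as a term (limma, adjusted by Benjamini-Hochberg over all 12039 measured probes). None of the 22 members passed the 5% threshold, and the lowest adjusted p was 0.355, for Cald1. Over all probes 2 passed, or 0.0166%. At an unadjusted p under 0.05, 1 member passed, Cald1 (4.55%), against 12.2% of all probes. Levels were higher in IFNgKO in 18 members and lower in 4, with a median difference of 0.13 on the log2 scale, against 0.00 over all measured genes. The standard error of a member's difference was 0.13 to 0.23. Without WT_644 the median was 0.05 with 14 members higher, and without WT_641 it was 0.26 with 21 members higher.

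Among the actins, Acta2, the alpha actin of vascular and visceral smooth muscle, had log2 levels of 15.27, 15.36, 15.25, 15.46 and 15.37 in IFNgKO_645 to IFNgKO_649, and 15.32, 15.28, 15.42, 15.24 and 14.86 in WT_640 to WT_644. The groups overlapped and WT_644 was lowest. The difference was 0.12 (SE 0.13, limma adjusted p = 0.739), or 0.02 without WT_644. Actg2, the gamma actin that predominates in gut muscle, had 13.45, 13.35, 14.14, 13.96 and 14.25 in IFNgKO, and 13.29, 13.94, 13.93, 13.65 and 13.69 in WT. The low values were IFNgKO_645 and IFNgKO_646 and WT_640, all of array set 1, and the difference was 0.13 (SE 0.16, limma adjusted p = 0.771), or 0.07 to 0.28 with 1 sample left out, highest without WT_641.

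Myh11, the smooth muscle myosin heavy chain, had log2 levels of 13.03, 13.06, 13.22, 12.84 and 12.98 in IFNgKO_645 to IFNgKO_649, and 13.19, 13.21, 12.98, 12.79 and 12.63 in WT_640 to WT_644. The ranges overlapped almost wholly, and the difference was 0.07 (SE 0.13, limma adjusted p = 0.863), with 0.00 without WT_644 and -0.01 without IFNgKO_647. The tropomyosins lie along actin and gate myosin binding. Tpm1 had 14.04, 14.35, 14.41, 14.33 and 14.40 in IFNgKO, and 14.01, 14.39, 14.25, 13.76 and 13.66 in WT. IFNgKO_645 stood below the other knockout samples, and WT_643 and WT_644 were the lowest of all, for a difference of 0.29 (SE 0.16, limma adjusted p = 0.482). Tpm2 had 11.96, 11.90, 12.40, 12.16 and 12.55 in IFNgKO, and 11.85, 12.13, 11.93, 12.13 and 11.61 in WT. Its highest samples were IFNgKO_649 and IFNgKO_647, and the difference was 0.27 (SE 0.16, limma adjusted p = 0.511), or 0.16 without WT_644.

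Tagln, transgelin or SM22, an actin-binding protein widely used as a smooth muscle marker, had the largest positive difference of the members. Its log2 levels were 9.88, 9.65, 10.02, 9.69 and 9.77 in IFNgKO_645 to IFNgKO_649, and 9.71, 10.22, 9.25, 9.10 and 8.41 in WT_640 to WT_644. The knockout samples stayed within a narrow band, while the WT samples held both the highest value (WT_641) and the lowest (WT_644). The mean was 9.80 ± 0.15 in IFNgKO and 9.34 ± 0.68 in WT (SD, n = 5 each), a difference of 0.46 (95% interval -0.03 to 0.96, limma adjusted p = 0.430). Without WT_644 it was 0.27.

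Cald1, caldesmon, which holds back myosin at the actin filament, went the other way. Its log2 levels were 6.14, 5.60, 6.44, 5.63 and 6.14 in IFNgKO_645 to IFNgKO_649, and 6.61, 7.18, 6.27, 6.47 and 6.13 in WT_640 to WT_644. IFNgKO_646 and IFNgKO_648 were the lowest samples and WT_641 the highest, and the groups overlapped. The difference was -0.54 (SE 0.21, unadjusted p = 0.0232, limma adjusted p = 0.355), but -0.28 both without background correction and in the authors' deposited value table. The probe was dim, at a raw intensity of 117.7 to 180.1 with array medians of 93 to 111.8, and a second Cald1 probe was detected on 0 arrays.

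Smtn, smoothelin, a marker of contractile smooth muscle, had log2 levels of 12.07, 12.18, 11.88, 11.68 and 12.09 in IFNgKO_645 to IFNgKO_649, and 11.91, 12.71, 12.50, 11.77 and 11.13 in WT_640 to WT_644. The WT samples spanned the whole range of the knockouts, and the difference was -0.02 (SE 0.23, limma adjusted p = 0.981), with a sign that turned under other settings. Des had 12.39, 12.46, 12.49, 12.33 and 12.65 in IFNgKO, and 12.43, 12.76, 12.37, 12.14 and 11.60 in WT. WT_641 was highest and WT_644 lowest. The SD was 0.12 in IFNgKO and 0.43 in WT, and the difference was 0.21 (SE 0.18, limma adjusted p = 0.658), or 0.05 without WT_644 and 0.13 without IFNgKO_649.

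Csrp1 had log2 levels of 12.45, 12.40, 12.87, 12.63 and 12.71 in IFNgKO_645 to IFNgKO_649, and 12.19, 13.06, 12.62, 12.34 and 11.83 in WT_640 to WT_644. WT_641 and WT_644 again marked the ends of the range, and the difference was 0.20 (SE 0.20, limma adjusted p = 0.711), or 0.05 without WT_644 and 0.40 without WT_641. Pdlim3 had 12.10, 12.20, 12.46, 12.28 and 12.49 in IFNgKO, and 12.03, 12.27, 12.21, 12.02 and 11.50 in WT. Its groups overlapped in spite of the second largest positive difference among the members, 0.30 (SE 0.16, limma adjusted p = 0.466), which was 0.16 without WT_644.

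Mylk, the myosin light chain kinase that starts contraction, had log2 levels of 13.97, 14.01, 14.34, 13.90 and 13.95 in IFNgKO_645 to IFNgKO_649, and 13.97, 14.10, 13.99, 13.68 and 13.05 in WT_640 to WT_644. IFNgKO_647 stood above the other samples and WT_644 below them, for a difference of 0.28 (SE 0.19, limma adjusted p = 0.564), or 0.11 without WT_644 and 0.17 without IFNgKO_647. Ppp1r14a (CPI-17), the inhibitor of myosin phosphatase, had 8.66, 8.61, 8.41, 8.31 and 8.25 in IFNgKO, and 8.39, 9.22, 8.63, 8.26 and 7.82 in WT. WT_641 was highest and WT_644 lowest, and the difference was -0.01 (SE 0.18, limma adjusted p = 0.985), with a sign that turned under other settings. Kcnma1, the pore of the large-conductance potassium channel that relaxes smooth muscle, had 5.14, 5.54, 5.69, 5.66 and 5.74 in IFNgKO, and 4.79, 5.65, 6.01, 6.23 and 5.52 in WT. The highest values were those of WT_643 and WT_642, and the lowest that of WT_640. It was detected in 4 of 5 IFNgKO samples and 2 of 5 WT samples, at raw intensities of 92.2 to 151.7, and its difference was -0.08 (SE 0.19, limma adjusted p = 0.877), or -0.25 to 0.02 with 1 sample left out.

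The other measured members had differences between 0.02 and 0.23, none past the threshold. They were Cnn1 (0.10), Lmod1 (0.07), Actn1 (0.23), the alpha actinin of dense bodies, Pgm5 (0.13), an adhesion protein also called aciculin, Synm (0.18), the intermediate filament synemin, Pdlim7 (0.16), and Myocd (0.02), the myocardin that partners SRF. Vcl had 8.81, 9.31, 10.28, 10.47 and 10.88 in IFNgKO_645 to IFNgKO_649, and 9.02, 9.25, 10.06, 10.34 and 10.51 in WT_640 to WT_644, a difference of 0.11 (SE 0.16, limma adjusted p = 0.805), or 0.01 without IFNgKO_649 and 0.22 without IFNgKO_645.

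**Figure D3:**
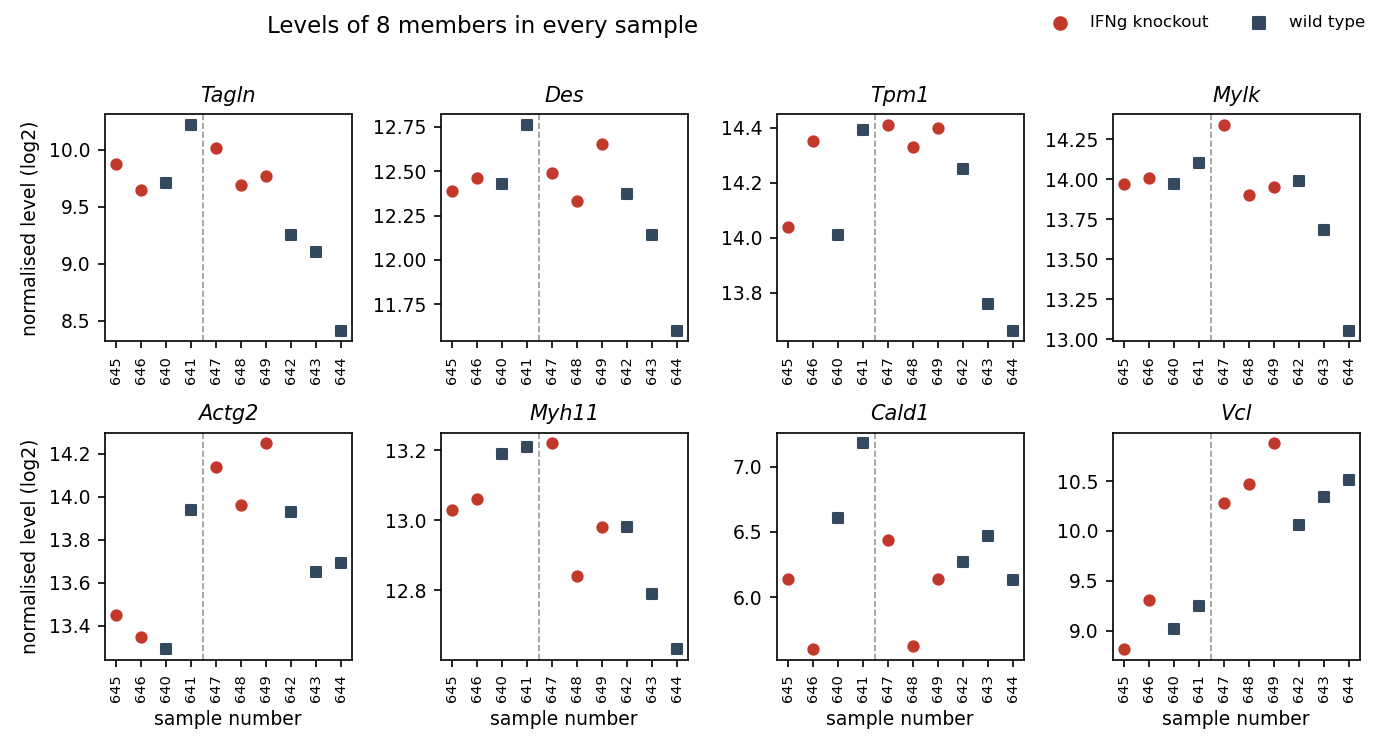
Normalised log2 level (vertical axes, 1 scale per gene) of 8 members in every sample, IFNgKO as circles left of WT as squares within each array set, with the dashed line between array set 1 and array set 2. In array set 2 the IFNgKO samples lie above all WT samples for Tagln, Tpm1 and Actg2, and Vcl is higher in array set 2 than in array set 1 in both genotypes.

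The genotype difference was then read within each array set, in 1 fit with a mean per genotype and array set, and it pointed opposite ways. In array set 1 (2 against 2 samples) 17 of the 22 members were lower in IFNgKO and 5 higher, with a median of -0.16 against -0.02 over all measured genes. Of all probes, 50.7% were lower there. Without WT_641, 5 members were lower, against 51.4% of all probes. Under median scaling 4 were lower, but only 26.7% of all probes were. In array set 2 (3 against 3) 20 were higher and 2 lower, with a median of 0.32 against 0.00. Of the 22 members, 16 (72.7%) were lower in array set 1 and higher in array set 2, against 20.1% of all measured genes. None was called by limma in either set (0% and 0% of all probes were called), and adjusted p-values were at least 0.573 in array set 1 and at least 0.756 in array set 2.

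The direction in array set 1 rests on WT_641. Without it, where the lone WT_640 is assumed to vary like the other groups, the median was 0.12. Under median scaling it was 0.08, where the median of all probes was 0.19. Without WT_640, 21 members were lower, against 51.7% of all probes, and the median was -0.32. In array set 1, 1 member had an unadjusted p under 0.05, namely Cald1 at -1.03 (SE 0.30, limma adjusted p = 0.573), which is 4.55% of the members, against 8.19% of all probes. In array set 1 both IFNgKO samples were below both WT samples in 2 members, Cald1 and Myh11, against 18.7% of all probes.

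In array set 2 every IFNgKO sample was above every WT sample in 9 of 22 members, and in 12 of their 32 probes, against 7.08% of all probes. The 9 were Actg2, Tagln, Tpm1, Tpm2, Actn1, Csrp1, Synm, Pdlim3 and Pdlim7. At an unadjusted p under 0.05, 4 members were higher (18.2%), against 3.17% of all probes, and none was lower. They were Tagln (0.91, SE 0.23), Tpm2 (0.48, SE 0.19), Pdlim3 (0.50, SE 0.20) and Tpm1 (0.49, SE 0.20), with limma adjusted p-values of 0.756 to 0.819. For Tagln the samples of array set 2 were 10.02, 9.69 and 9.77 in IFNgKO_647, IFNgKO_648 and IFNgKO_649, and 9.25, 9.10 and 8.41 in WT_642, WT_643 and WT_644.

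Without WT_644, 18 of 22 members were still higher in array set 2, with a median of 0.20, and 9 had all IFNgKO samples above the remaining WT samples, where 11.5% of all probes did. At an unadjusted p under 0.05 the count was then 1, where 2.15% of all probes passed as higher. It was also 1 without IFNgKO_647 (2.55% of all probes) and 2 without IFNgKO_649 (2.14% of all probes). Under median scaling 20 members were higher, where 75.4% of all probes were, with a median of 0.47 where that of all probes was 0.17. All IFNgKO samples were then above all WT samples in only 3 members, where 11.3% of all probes did so.

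The difference between the array sets in the genotype difference was tested directly as an interaction. It was positive, meaning more in favour of IFNgKO in array set 2, in 21 of 22 members (95.5%) and in 53.6% of all measured genes, with a median of 0.50 against 0.03. None of the members was called by limma (0% of all probes were called), the lowest adjusted p was 0.999, and 1 gene (4.55%) had an unadjusted p under 0.05, against 3.17% of all probes. That gene was Tagln, at 1.10 (SE 0.37, limma adjusted p = 0.999). Cald1 had 0.81 (SE 0.39), Des 0.62 (SE 0.33) and Actg2 0.57 (SE 0.31), and Kcnma1 was the exception with -0.34 (SE 0.39). Without WT_641 and WT_644 the interaction was positive in 14 of 22 members with a median of 0.19.

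**Figure D4:**
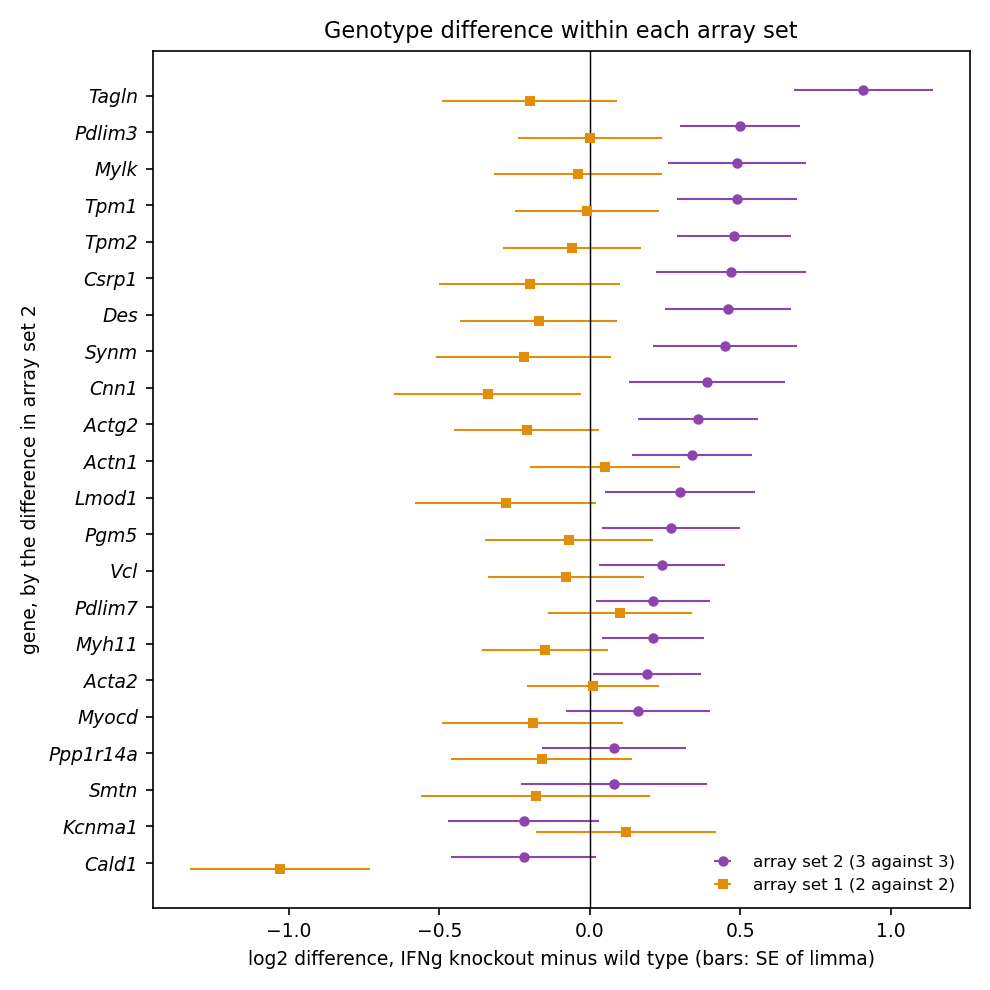
Log2 difference, IFNgKO minus WT, of each measured member (rows) within array set 2 (circles) and array set 1 (squares), with the standard error of limma as bars. Nearly all circles lie right of 0, with Tagln at 0.91, and most squares lie left of it or at 0, with Cald1 at -1.03.

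The array sets themselves were compared with genotype as a term. Of the 22 members, 1 was called (limma, Benjamini-Hochberg at 5%), against 19.2% of all probes. It was Vcl, at 10.43 ± 0.28 in array set 2 (SD, n = 6) and 9.10 ± 0.23 in array set 1 (SD, n = 4), a difference of 1.33 (SE 0.17, limma adjusted p = 7.8e-05). No sample of array set 2 overlapped with array set 1 for Vcl, in either genotype. The median over the members was -0.10, and -0.13 over all measured genes. Which other members were called depended on the setting. The share of all probes called is not given for the other settings, so further calls are not read as a result about the members.

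Genes with more than 1 measured probe show how far a value depends on the probe. The brightest probe of Acta2 reached raw intensities of 24626.7 to 48605, close to the array maxima of 41861.7 to 57950.9, and its difference between IFNgKO and WT was 0.12. Its other 3 probes gave 0.25, 0.44 and 0.25, with an unadjusted p of 0.0147 for the second of these (limma adjusted p = 0.323). The 2 probes of Mylk gave 0.28 and 0.35, those of Pdlim3 0.30 and 0.16, and those of Pgm5 0.13 and 0.10. Synm gave 0.18, -0.01 and 0.25, and Smtn gave -0.02, 0.00 and -0.25, so their probes did not all point one way. Over the 32 probes 26 were higher in IFNgKO and 6 lower, and 0 were called by limma, with 3 at an unadjusted p under 0.05 (9.38%).

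Genes that regulate contraction, some of muscle or pericytes and some of many cell types, gave a median near 0. Of 50 such genes listed, 41 had a probe and 29 were measured. Between IFNgKO and WT 16 were higher and 13 lower with a median of 0.03, and 0 were called by limma. At an unadjusted p under 0.05, 1 of the 29 passed, as lower, against 12.2% of all probes in either direction. That gene was Prkg1, the kinase through which nitric oxide relaxes muscle, at 6.36 ± 0.26 in IFNgKO and 6.74 ± 0.26 in WT (SD, n = 5 each), a difference of -0.38 (SE 0.16, limma adjusted p = 0.374). Next by p was Chrm2, the main muscarinic receptor of gut muscle, at -0.36 (SE 0.17, limma adjusted p = 0.412). The mean content of this list ranged only from -0.09 to 0.07 in IFNgKO samples and from -0.05 to 0.09 in WT samples.

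Of 39 genes listed for SRF, myocardin and the signals upstream, 34 had a probe and 22 were measured, Myocd among them. In IFNgKO 15 were higher and 7 lower with a median of 0.06, and 0 were called by limma, with 0 at an unadjusted p under 0.05. The lowest p-values were those of Smad3, a transducer of TGF-beta signals, at -0.35 (SE 0.16, limma adjusted p = 0.414), and of Tgfbr2, a TGF-beta receptor, at 0.28 (SE 0.15, limma adjusted p = 0.457). WT_644 was the lowest sample for this list as well, at -0.16, while all others lay between -0.03 and 0.10.

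Markers of the other cells of the wall were read in the same samples, and their part in the muscle differences was not tested. Between IFNgKO and WT 0 of their genes were called by limma, and an unadjusted p under 0.05 was found for 3 of 11 neuronal, 2 of 13 endothelial, 1 of 15 epithelial, 3 of 16 fibroblast, 0 of 5 pericyte and 3 of 6 striated muscle genes, against 12.2% of all probes. Neuron and glia markers (11 of 22 listed were measured) had a content of -0.18 to 0.06 in IFNgKO and -0.15 to 0.35 in WT, with WT_641 highest. Of these, 7 were lower in IFNgKO and 4 higher with a median of -0.16, and the lowest p-values were those of Npy (-0.64, SE 0.18, limma adjusted p = 0.247) and Uchl1 (-0.57, SE 0.18, limma adjusted p = 0.286). Elavl4, Snap25, Tubb3, S100b and Gfap, also markers of these cells, were detected on 0 arrays. Endothelial markers (13 of 14) were highest in WT_641 too, at 0.30, but stood at 0.07 in WT_644, where muscle was lowest. They ran from -0.21 to 0.18 in IFNgKO and from -0.09 to 0.30 in WT, with 3 higher in IFNgKO and 10 lower. Kdr (-0.50, SE 0.19) and Emcn (0.31, SE 0.13) had the lowest p there, with limma adjusted p-values of 0.345 and 0.377.

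Epithelial markers (15 of 19) had a content of 0.35 in WT_644, the highest of all samples, where muscle was lowest. The content was -0.28 in WT_641, where muscle was highest, but it was below 0 in all 4 samples of array set 1. It was -0.29 in IFNgKO_645, -0.31 in IFNgKO_646 and -0.15 in WT_640. Over all samples it was -0.31 to 0.20 in IFNgKO and -0.28 to 0.35 in WT. Between the array sets 5 of the 15 were called by limma, where 19.2% of all probes were. The median for array set 2 minus array set 1 was 0.36. In IFNgKO 6 were higher and 9 lower, and the lowest p-values belonged to Cdx2 (-0.41, SE 0.14, limma adjusted p = 0.316) and Elf3 (-0.35, SE 0.17, limma adjusted p = 0.424), both transcription factors of gut epithelium.

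Fibroblast and matrix markers (16 of 20) had a content of 0.00 to 0.31 in IFNgKO and -0.34 to 0.09 in WT, with WT_644 lowest and IFNgKO_646 highest. In WT_641, where muscle was highest, their content was -0.21. In IFNgKO 14 were higher and 2 lower with a median of 0.27. The list's median was 0.24 within array set 1 and 0.22 within array set 2, where that of the muscle genes was -0.16 and 0.32, a difference between the lists that was not tested. Dpt, dermatopontin, had 6.58 ± 0.74 in IFNgKO and 6.07 ± 0.79 in WT (SD, n = 5 each), a difference of 0.50 (SE 0.16, limma adjusted p = 0.286). It was detected in 4 of 5 IFNgKO samples and 3 of 5 WT samples. Between the array sets it was 1.33 higher in array set 2 (limma adjusted p = 6.77e-05). Col5a1, a fibrillar collagen, had a difference between genotypes of 0.39 (SE 0.16, limma adjusted p = 0.374).

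**Figure D5:**
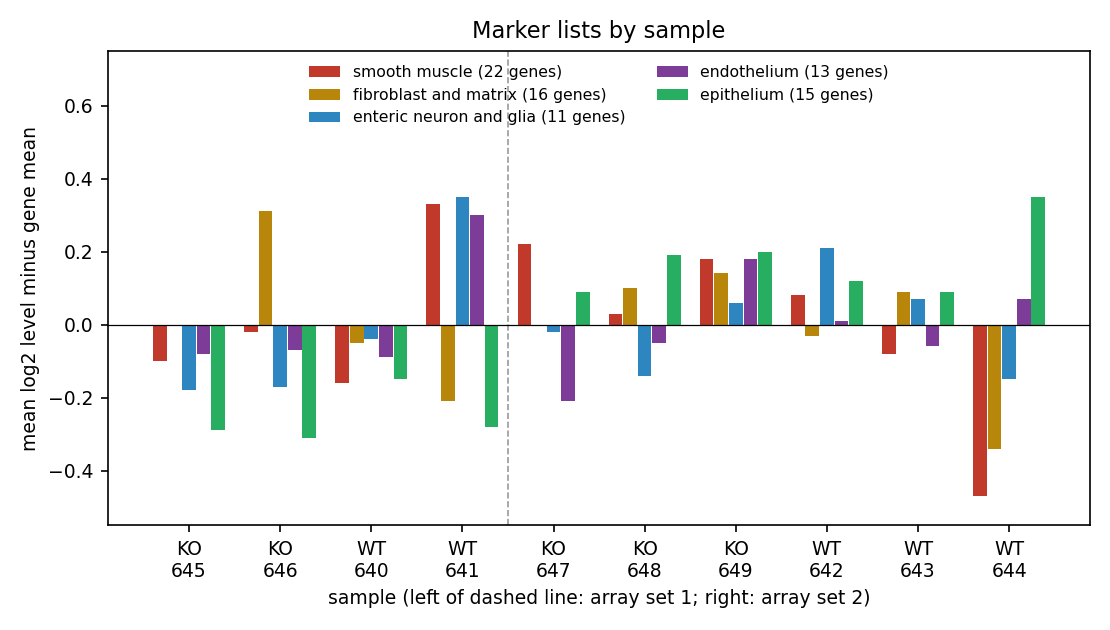
Mean over a list's measured genes of the log2 level minus the gene's mean (vertical axis) for 5 marker lists in each sample (horizontal axis), IFNgKO left of WT within each array set. In WT_644 muscle is at -0.47 and epithelium at 0.35, and in WT_641 muscle is at 0.33 and epithelium at -0.28. Other samples differ. Epithelium is at -0.29 in IFNgKO_645 and -0.31 in IFNgKO_646, where muscle is at -0.10 and -0.02. In IFNgKO_649 muscle is at 0.18 and epithelium at 0.20.

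Pericyte markers (5 of 6) were at 0.41 in WT_641 and -0.36 in WT_644, their highest and lowest samples. All 5 were lower in IFNgKO, led by Abcc9 (-0.21, limma adjusted p = 0.544) and Rgs5 (-0.08, limma adjusted p = 0.883). Of the mesothelial markers of the outer gut surface, Upk3b alone was measured, at -0.10 between IFNgKO and WT. Markers of interstitial cells of Cajal, the pacemaker cells of the gut muscle, were measured in 0 of the 4 genes with a probe. Of 16 striated muscle markers 6 were measured, and 4 were higher in IFNgKO, Actc1 among them, and 2 lower. Actc1, cardiac alpha actin and 1 of the 3 counted above, was detected in 5 of 5 IFNgKO samples and 0 of 5 WT samples, and since it passed the detection filter through the IFNgKO samples alone, no fold is given for it and its count carries no weight. The 2 lower ones were Mb, myoglobin, at -0.51 (SE 0.17, limma adjusted p = 0.301), and Acta1, at -1.11 (SE 0.42, limma adjusted p = 0.344). The striated muscle myosins Myh1, Myh4, Myh6 and Myh7 were detected on 0 arrays.

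Outside the list, 10 of the other 8664 measured genes were taken by how closely their profile, with the 4 group means subtracted, followed the mean profile of the members over the 10 samples. They were Ckb, the brain-type creatine kinase (r = 0.982), Six5 (0.978), Hhatl (0.976), Ica1 (0.969), Ahdc1 (0.968), Phpt1 (0.967), Syn1 (0.967), 3110009E18Rik (0.966), Acap1 (0.964) and Abhd8 (0.961). Without WT_641 and WT_644 their correlations were 0.728 to 0.981, with Hhatl highest. With 6 degrees of freedom and so many genes to choose from, high correlations are reached by selection, and all values share the same arrays. Between IFNgKO and WT their differences ran from -0.23 (Hhatl) to 0.26 (Phpt1).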

How the data were processed

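Total RNA of 10 ileum samples was hybridised to bead arrays, 1 array per sample. Per the file headers, the deposited table gives for each probe and array an intensity, linear and not background-subtracted as read from its values, beside its detection p-value. Lumi is named in the submitters' processing notes without a version, and no source used here names the scanner's program. The number of arrays limits the precision.

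Intensities went through neqc (limma 3.58.1, R 4.3.3), which applies normexp with the negative controls estimated from detection p-values, adds an offset (16 here), takes log2 and equalises quantiles. The authors' deposited value table of intensity values was used as an alternative. Probes with a detection p under 0.05 on 5 arrays were tested. A gene is represented by its probe with the highest mean level. Genotype was tested with limma (lmFit, eBayes) with array set as a term, within array sets and for the interaction, and adjusted by Benjamini-Hochberg over all 12039 probes at 5%. The code was tested on simulated data.

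Members and lists were chosen with earlier results of these data known. The members given for every sample are the 8 with the highest mean level, the 4 with the lowest p in each direction, the 4 with the lowest interaction p, and any past 5% in a test. From each other list the 2 genes with the lowest p are named, and outside them the 10 closest profiles. Other genes named were chosen after their values were seen. Gene names and promoters came from the platform table and RefSeq (GRCm38.p6). Alternatives covered background correction, normalisation, filters, the variance model, array weights, probe choice, the array set term and each sample left out. The array sets alone, and WT_641 and WT_644 left out together (added after seeing the data), were also fitted.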

Additional observations from a re-analysis of the deposited data

Results flagged for a closer look

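For the 22 measured members and the muscle content, 46 groups of 5 samples were screened for a sample far from the others of its genotype, and 2 were found. Chance alone gives about 1 in 20. Tpm1 had a log2 level of 14.04 in IFNgKO_645, against 14.33 to 14.41 in the other IFNgKO samples. Mylk had 14.34 in IFNgKO_647, against 13.90 to 14.01 in the other IFNgKO samples. In the second Mylk probe IFNgKO_647 had 14.20, close to the 14.13 of IFNgKO_645, and did not stand apart.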

How the results depend on the processing

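The members called were 0 for IFNgKO against WT, within each array set and for the interaction in all alternatives run. The median difference stayed positive between the genotypes, at 0.05 (without WT_644) to 0.32 (median scaling, where all probes shifted by 0.19), and in array set 2, at 0.19 to 0.47. In array set 1 it lay between -0.32 and 0.12 when 1 sample at a time was left out, the highest without WT_641, and was 0.08 under median scaling and 0.12 without both WT_641 and WT_644. For array set 2 against array set 1, the members called were 1 in the main fit, where 19.2% of all probes were called. They were 2 under median scaling, 2 with a trended, robust variance, 3 with array weights, 1 to 3 with 1 sample left out, and 5 without WT_641 and WT_644. The share of all probes called is not given for these alternatives, so their counts are not read as a result about the members. Under median scaling the muscle content was 0.06 in WT_641 and -0.73 in WT_644. Near-zero differences changed sign. Smtn was 0.16 under median scaling and 0.06 with array weights, and -0.22 to 0.15 with 1 sample left out. Ppp1r14a was 0.21, 0.10 and -0.14 to 0.14 under the same settings, and 0.01 without WT_641 and WT_644. With 1 sample left out, Kcnma1 was -0.25 to 0.02 and Myh11 was -0.01 to 0.11. No paired analysis was possible because the sample numbers are not shared between genotypes. Members near background, Cald1, Cnn1 and Kcnma1, are measured with the least signal. The causes of these changes were not tested.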
